A study of Rattus norvegicus with 6 samples.

Results

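The respiratory chain and the citric acid cycle were followed through 43 nuclear genes, listed by name for their place in these pathways. They comprise 12 subunits of complex I, 4 of complex II, 6 of complex III with cytochrome c, 7 of complex IV and 3 of ATP synthase, together with 11 enzymes of the cycle or its cytosolic branch. Of the 43, 42 were matched to a probe, and all 42 were among the 12007 genes tested; Cyc1, the cytochrome c1 of complex III, was not matched and was not analysed here. The 42 were well above background on all 6 arrays, and none was saturated on any.

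The samples were renal cortex, the outer zone of the kidney and mostly tubules, from male Sprague-Dawley rats bought when 5 weeks old. One group of 3 rats received ADBAQ (1-amino-2,4-dibromoanthraquinone, a brominated anthraquinone used in dye manufacture) at 1000 mg/kg/day over 4 weeks, and the control group of 3 rats received corn oil over the same time. The labels describe the replicates as biological, and RNA of each rat was hybridised alone to a 1-colour Agilent array, so the comparison asks how the treatment differed from the vehicle in whole cortex. All corn oil arrays came from 1 slide and scan and all ADBAQ arrays from another, so an effect of the slide or of the scan cannot be told apart from that of the treatment. The 75th percentile of the signal was 1126 to 1177 on the corn oil arrays and 1279 to 1306 on the ADBAQ arrays. Signals below are processed signals divided by that percentile of their own array, on a linear scale, and differences are ADBAQ minus corn oil in log2 of that value.

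The citric acid cycle oxidises acetyl groups in the mitochondrial matrix and hands electrons to NADH and, through succinate, to ubiquinone. Complexes I and II feed those electrons into the chain, complex III passes them to cytochrome c, complex IV reduces oxygen, and ATP synthase uses the proton gradient so built. The proximal tubule, which fills most of the renal cortex, is rich in mitochondria and depends on this pathway for the energy of reabsorption.

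Promoters of nuclear respiratory genes are known for sites of NRF1, of GABP and other ETS factors, of the estrogen-related receptors and of YY1. RefSeq promoter sequences (GRCr8, 250 bases before to 50 after the start of the gene) were found for 39 of the 43 genes. Among these 39, 18 (46.2%) held at least 1 of the motifs CGCANGCGC (NRF1), ACCGGAAG (ETS), TNAAGGTCA (estrogen-related receptors) or AANATGGCG (YY1) on either strand, against 11.4% of all 33469 promoters in the table. The NRF1 motif was in 8 (20.5%, against 5.75% of all promoters), the ETS motif in 6 (15.4% against 2.49%), the YY1 motif in 9 (23.1% against 3.01%) and the receptor motif in 1 (2.56% against 1.2%); no match overlapped another. The promoters below are those of Mdh1, the gene with the highest difference, of Idh3g, one of the cycle genes above its controls on every array and the holder of 3 different motifs, of Ndufa5, the complex I gene with the lowest difference, and of Suclg2, a cycle gene on the low side. Capitals mark the matches, which are YY1, ETS and NRF1 in that order in Idh3g, NRF1 in Ndufa5 and YY1 in Suclg2; Mdh1 has none in this window. The windows lie at chr14:99847178-99847477 (minus strand) for Mdh1, chrX:156675433-156675732 (minus) for Idh3g, chr4:53971186-53971485 (minus) for Ndufa5 and chr4:129893888-129894187 (minus) for Suclg2.
Mdh1: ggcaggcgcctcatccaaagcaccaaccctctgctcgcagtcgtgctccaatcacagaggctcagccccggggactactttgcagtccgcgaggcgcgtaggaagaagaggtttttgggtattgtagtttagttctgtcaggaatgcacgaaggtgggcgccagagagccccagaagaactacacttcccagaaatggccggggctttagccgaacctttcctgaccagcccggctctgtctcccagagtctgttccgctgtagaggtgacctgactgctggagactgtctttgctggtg
Idh3g: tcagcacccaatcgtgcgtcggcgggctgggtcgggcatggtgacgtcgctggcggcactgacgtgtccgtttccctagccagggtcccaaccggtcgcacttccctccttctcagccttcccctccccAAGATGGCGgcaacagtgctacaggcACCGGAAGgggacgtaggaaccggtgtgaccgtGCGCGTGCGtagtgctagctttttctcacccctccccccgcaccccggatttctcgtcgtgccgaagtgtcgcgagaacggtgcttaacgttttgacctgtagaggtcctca
Ndufa5: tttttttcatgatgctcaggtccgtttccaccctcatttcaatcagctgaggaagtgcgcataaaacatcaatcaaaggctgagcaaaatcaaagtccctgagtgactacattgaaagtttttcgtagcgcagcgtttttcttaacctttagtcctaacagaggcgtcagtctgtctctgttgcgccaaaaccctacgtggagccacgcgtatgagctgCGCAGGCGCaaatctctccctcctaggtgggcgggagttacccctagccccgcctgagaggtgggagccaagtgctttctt
Suclg2: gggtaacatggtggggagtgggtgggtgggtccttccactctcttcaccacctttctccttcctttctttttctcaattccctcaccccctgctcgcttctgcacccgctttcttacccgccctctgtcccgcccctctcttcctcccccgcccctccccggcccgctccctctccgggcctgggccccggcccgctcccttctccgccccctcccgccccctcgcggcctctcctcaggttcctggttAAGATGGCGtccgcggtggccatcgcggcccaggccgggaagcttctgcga
Genes with and without a motif lay on both sides of 0. The median difference was 0.02 over the 18 genes with any motif, of which 10 lay above 0, and -0.04 over the 21 without, of which 8 did. The printed promoters show the same mixture, since Mdh1 without a motif had the highest difference, and Idh3g and Ndufa5, which both hold an NRF1 motif, lay on opposite sides of 0.

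None of the 42 genes passed the test. At a Benjamini-Hochberg adjusted p of 0.05 over all 12007 genes (limma), 0 of 42 were higher and 0 were lower after ADBAQ, where 27 genes (0.225%) were higher and 8 (0.0666%) lower in all; the smallest adjusted p among the 42 was 0.11, for Mdh1. At an unadjusted p under 0.05, 5 were higher (8.94% of all genes were) and 2 lower (10.5% of all genes were), which is 16.7% of the 42 against 19.4% of all genes. The differences were small: they ran from -0.18 to 0.36, 39 of the 42 were under 0.2 in size, and the median was -0.02 against -0.01 over all genes. The 95% intervals, taken gene by gene, lay between a 0.721-fold and a 1.46-fold level, so a change by a factor of 2 lay outside every one of them under this scaling. Standard errors were 0.050 to 0.135, with a median of 0.061 against 0.094 for all genes. As the tissue was measured in bulk, fewer cells of a type and less RNA per cell cannot be told apart.

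**Figure D1:**
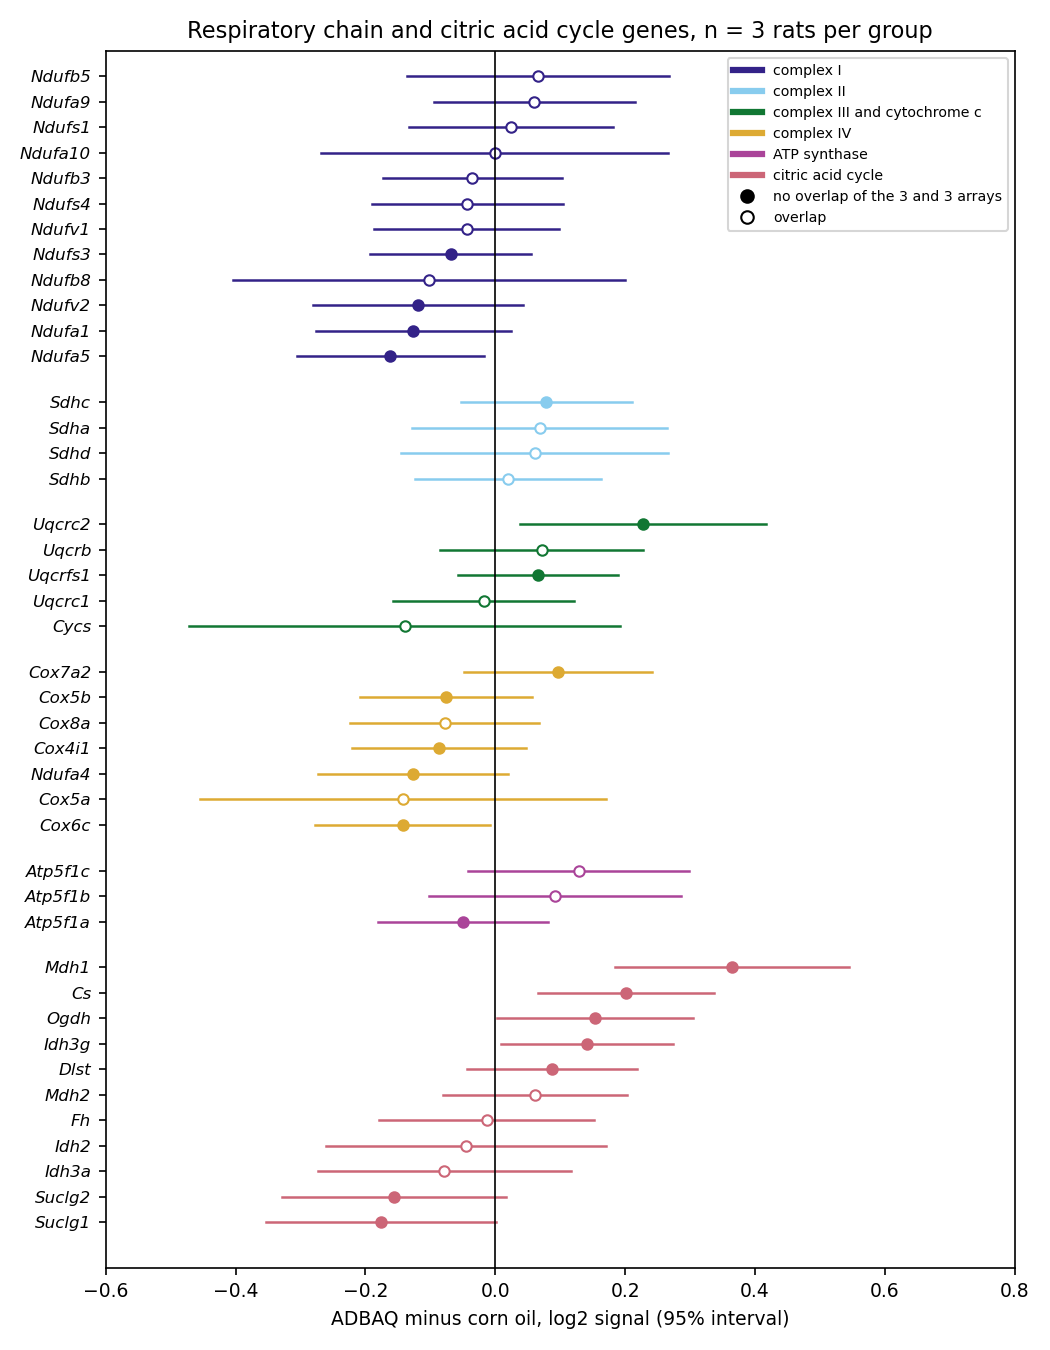
Differences of the 42 genes, ADBAQ minus corn oil in log2 signal, with 95% intervals from limma (n = 3 rats per group), coloured by complex or cycle and ordered by size within each; filled points are genes without overlap between the 3 rats of each group. Most points lie within 0.2 of 0, Mdh1 stands highest at 0.36, and complexes I and IV lie mostly below 0 under this scaling.

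Groups without overlap were more frequent than called genes. In 9 genes all 3 ADBAQ arrays lay above all 3 corn oil arrays (12.7% of all genes did so), and in 11 they lay below (14.9% of all genes), together 20 of 42 (47.6%) against 27.6% of all genes. The 9 were Sdhc, Uqcrc2, Uqcrfs1, Cox7a2, Cs, Idh3g, Ogdh, Dlst and Mdh1. The 11 were Ndufa1, Ndufa5, Ndufs3, Ndufv2, Ndufa4, Cox4i1, Cox5b, Cox6c, Atp5f1a, Suclg1 and Suclg2.

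Complex I takes electrons from NADH. Its 12 genes had differences from -0.16 to 0.07 with a median of -0.04, and 9 lay below 0. Ndufa5, an accessory subunit of the arm that reaches into the matrix, had the lowest difference. Its signal was 135.7, 133.9 and 125.0 on the corn oil arrays and 115.7, 117.2 and 119.5 on the ADBAQ arrays. Every ADBAQ array was below every corn oil array, with a difference of -0.16 ± 0.06 (SE, n = 3 per group), an unadjusted limma p of 0.033 and an adjusted p of 0.22. Ndufb5, an accessory subunit of the membrane arm, had the highest difference: its signal was 58.3, 59.9 and 62.3 under corn oil and 57.0, 64.2 and 68.1 after ADBAQ. These groups overlapped (0.07 ± 0.08, limma, adjusted p = 0.69). Between them, Ndufs1, Ndufv1 and Ndufs4, of which the first carries iron-sulfur clusters and the second binds NADH, had differences of 0.02, -0.04 and -0.04 with overlapping groups. The iron-sulfur subunit Ndufv2 and the accessory subunit Ndufa1 lay at -0.12 and -0.13, without overlap. Ndufa10 was level, at -0.0007 ± 0.11.

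The 19 other complex I subunits that were tested gave the same side more often than not. Of them 16 lay below 0, with a median of -0.08, and with the 12 genes above this made 25 of 31 below 0, with a median of -0.07. None passed the adjusted test. At an unadjusted limma p under 0.05, 1 of the 19 was higher (8.94% of all genes were) and 1 lower (10.5% of all genes were). The lower one was Ndufb6, an accessory subunit of the membrane arm, at -0.17 ± 0.06. The count below 0 depends on the scaling of the arrays. With quantile normalization 16 of the 31 lay below 0 and the median was -0.002. With no scaling 30 lay above 0.

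Complex II, succinate dehydrogenase, is at once an enzyme of the cycle and an entry to the chain. All 4 of its genes had small positive differences, from 0.02 for the iron-sulfur subunit Sdhb to 0.08 for the membrane anchor Sdhc. Sdhc had signals of 44.1, 43.4 and 43.1 under corn oil and 44.5, 46.1 and 47.3 after ADBAQ, which lie close together without overlap (0.08 ± 0.05, limma, adjusted p = 0.46). Sdhb had 46.5, 43.9 and 44.9 under corn oil and 44.1, 45.7 and 47.3 after ADBAQ. These groups overlap (0.02 ± 0.06, limma, adjusted p = 0.87). A second probe of Sdhb, nearly as bright, was at -0.08 without overlap. With the mean of probes Sdhb was at -0.03, and 3 of the 4 genes lay above 0. The flavoprotein Sdha and the anchor Sdhd lay at 0.07 and 0.06. The sign of Sdhd turned with normexp background correction (-0.06).

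Complex III and cytochrome c held 1 gene with a larger difference. Uqcrc2, a core protein of complex III, had signals of 34.7, 31.8 and 31.6 under corn oil and 38.6, 40.7 and 35.5 after ADBAQ. The lowest ADBAQ array was above the highest corn oil array, but only by a little, and the difference was 0.23 ± 0.08 (SE; limma, unadjusted p = 0.026 and adjusted p = 0.21). With normexp it was 0.12, and its unadjusted p was then above 0.05. Its partner core protein Uqcrc1 did not show this, with a difference of -0.02 ± 0.06. The Rieske iron-sulfur protein Uqcrfs1 and the subunit Uqcrb lay at 0.07 each. Cycs, cytochrome c, the mobile carrier between complexes III and IV, had the lowest difference of the group. Its signal was 101.0, 104.5 and 138.8 on the corn oil arrays and 97.1, 108.5 and 103.9 on the ADBAQ arrays, so 1 corn oil array stood above the other 5. The difference was -0.14 ± 0.14 (limma, adjusted p = 0.60), and without that array, corn oil replicate 3, it was 0.005. All 5 tested probes of Cycs lay below 0, at -0.14 to -0.24.

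Complex IV, cytochrome c oxidase, had the lowest median of the groups under this scaling. Of its 7 genes 6 were below 0, with a median of -0.09 and a range from -0.14 to 0.10. Cox6c, a small nuclear-encoded subunit, had signals of 173.1, 179.8 and 184.3 under corn oil and 158.9, 162.8 and 164.8 after ADBAQ. The groups did not overlap, with a difference of -0.14 ± 0.05 (SE, n = 3 per group), an unadjusted limma p of 0.041 and an adjusted p of 0.24; its other probe was at 0.02. Cox7a2, another small subunit, lay on the other side, with 69.8, 71.6 and 71.8 under corn oil and 72.3, 78.9 and 76.9 after ADBAQ (0.10 ± 0.06, limma, adjusted p = 0.41), and its other probe was at -0.13, so the 2 probes of each of these genes disagree in sign. Cox4i1, the main isoform of the subunit that binds ATP, and Cox5b had differences of -0.09 and -0.08 without overlap. Ndufa4, first described with complex I and now assigned to complex IV, was at -0.13. Cox5a was at -0.14 ± 0.13 with overlapping groups; it was -0.04 without ADBAQ replicate 2 and -0.26, with an unadjusted p under 0.05, without ADBAQ replicate 3. The median of the 7 was negative with normexp (-0.07) and quantile normalization (-0.06), and 0.08 with no scaling.

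ATP synthase was represented by the subunits of its catalytic head. Atp5f1c, the rotating gamma subunit, had signals of 58.4, 57.8 and 59.4 under corn oil and 59.1, 67.2 and 66.0 after ADBAQ, with 1 ADBAQ array inside the corn oil range (0.13 ± 0.07, limma, adjusted p = 0.36). Atp5f1a, the alpha subunit, had 426.4, 430.2 and 448.0 under corn oil and 413.9, 426.4 and 419.8 after ADBAQ; the groups touch at 426.4, and the difference was -0.05 ± 0.05 (limma, adjusted p = 0.64). The catalytic beta subunit Atp5f1b was at 0.09 ± 0.08. The other 11 subunits tested had a median of -0.04, which turned positive with normexp (0.01), with quantile normalization (0.02) and without ADBAQ replicate 1 (0.009). Among these stood Atp5if1, the inhibitor that binds the synthase when the proton gradient fails: its signal was 60.2, 63.4 and 61.2 under corn oil and 72.8, 76.3 and 77.3 after ADBAQ. This difference of 0.29 ± 0.06 was larger than the value of every chain gene above, and did not pass here (limma, adjusted p = 0.10), though it did with normexp (adjusted p = 0.042), with robust variances and an intensity trend (0.045) and with no scaling (0.031).

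The citric acid cycle had the widest spread of the groups, with genes on both sides. Differences ran from -0.18 to 0.36, 6 of 11 lay above 0, and 7 of 11 (63.6%) had groups that did not overlap, against 27.6% of all genes. This share was not the highest, as it was 5 of 7 (71.4%) in complex IV, and it was 25% to 40% in the other groups. Among the other complex I subunits it was 10 of 19 (52.6%). Mdh1, the cytosolic malate dehydrogenase of the malate-aspartate shuttle, had signals of 41.5, 38.0 and 40.1 on the corn oil arrays and 48.0, 51.4 and 54.7 on the ADBAQ arrays. Each ADBAQ array was above all corn oil arrays, by 1.29-fold in the group means of log2 signal (0.36 ± 0.07; limma, unadjusted p = 0.0027 and adjusted p = 0.11). Mdh2, the mitochondrial enzyme of the cycle itself, was at 0.06 ± 0.06 with overlapping groups. Suclg1, the alpha subunit of succinyl-CoA ligase, had the lowest difference of all 42 genes: its signal was 171.3, 154.8 and 151.4 under corn oil and 135.4, 146.7 and 140.0 after ADBAQ. No ADBAQ array reached the corn oil range, and the difference was -0.18 ± 0.07 (limma, adjusted p = 0.26). Suclg2, the beta subunit of its GTP-forming form, was on the same side at -0.16 ± 0.07, with the other probe at -0.06.

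The next genes are given because of their values, not by the rule for named genes. Cs, citrate synthase, which opens the cycle, had signals of 8.65, 9.02 and 8.56 under corn oil and 9.75, 10.2 and 10.2 after ADBAQ (0.20 ± 0.06, limma, unadjusted p = 0.011 and adjusted p = 0.16), and its other probe was at 0.31. Idh3g, a regulatory subunit of the NAD-dependent isocitrate dehydrogenase, had 135.3, 135.6 and 130.8 against 150.4, 149.5 and 143.2 (0.14 ± 0.05, limma, adjusted p = 0.23), and its other probe was at 0.12. Ogdh, the first component of the oxoglutarate dehydrogenase complex, had 29.2, 27.1 and 27.5 against 30.7, 32.4 and 30.2 (0.15 ± 0.06, limma, adjusted p = 0.25), but its other probe was at 0.002. In each of these 3 genes all ADBAQ arrays were above all corn oil arrays. Dlst, the second component of that complex, was at 0.09. Idh3a, the catalytic partner of Idh3g, was at -0.08 with its brighter probe and 0.19 with the other, the widest disagreement between probes of 1 gene among the 42. The NADP-dependent Idh2 and the fumarase Fh were level, at -0.05 ± 0.09 and -0.01 ± 0.07.

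**Figure D2:**
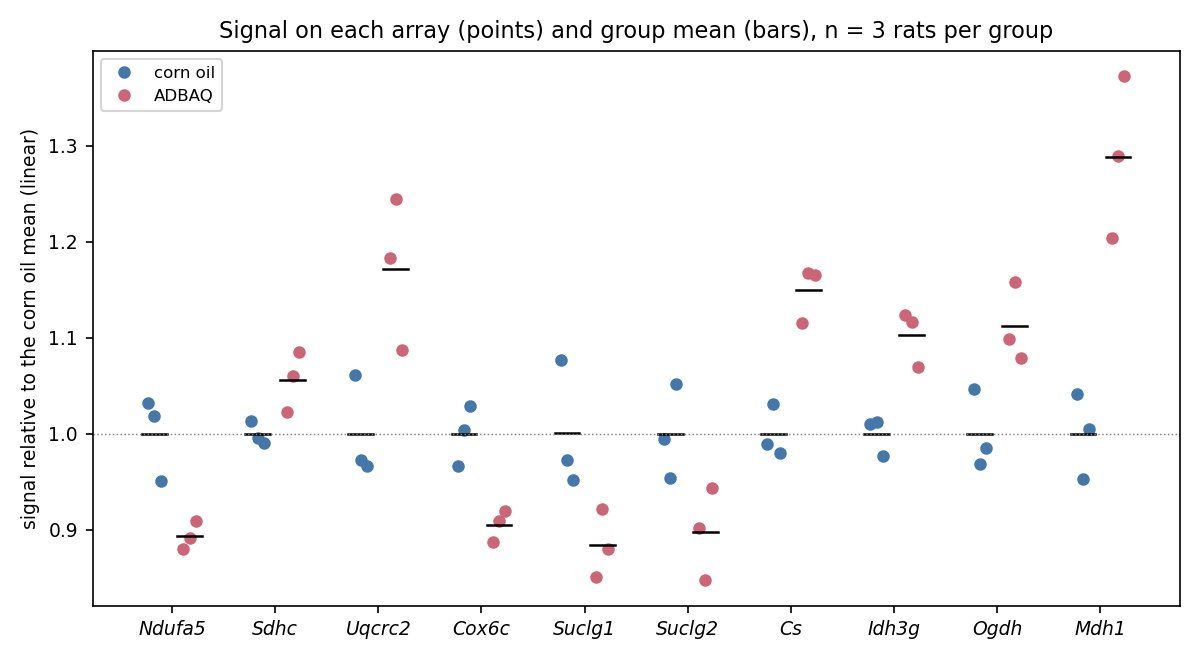
Signal on each array for 10 of the genes, divided by the corn oil mean of that gene (linear scale that does not start at 0; points are rats, bars are group means, n = 3 per group). ADBAQ points lie above the corn oil points for Sdhc, Uqcrc2, Cs, Idh3g, Ogdh and Mdh1 and below them for Ndufa5, Cox6c, Suclg1 and Suclg2, and Mdh1 is furthest apart.

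The enzymes of the cycle outside the 43 genes were mostly above 0. Of 6 tested, 5 lay above 0, with a median of 0.17, which was 0.09 without ADBAQ replicate 2. Dld, the component that the pyruvate and oxoglutarate dehydrogenase complexes share, had 15.4, 12.3 and 16.5 under corn oil and 19.5, 18.6 and 19.3 after ADBAQ (0.39 ± 0.12, limma, adjusted p = 0.17). With the 11 genes above, 11 of 17 cycle enzymes lay above 0, with a median of 0.09 (0.17 with normexp, 0.18 with quantile normalization).

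Setting groups against each other on the same array removes the scaling. Each gene was first taken relative to its corn oil mean, and the mean over the 11 cycle genes minus the mean over the 12 complex I genes was then 0.11, 0.10 and 0.08 on the ADBAQ arrays and 0.03, -0.02 and -0.01 on the corn oil arrays. The same for cycle minus complex IV was 0.15, 0.16 and 0.08 on the ADBAQ arrays and 0.06, -0.02 and -0.04 on the corn oil arrays. In both, with Mdh1 among the cycle genes, all ADBAQ arrays lay above all corn oil arrays. The mean differences were 0.10 and 0.13. Normexp, quantile normalization, the mean of probes and leaving out 1 array, the alternatives that can move this contrast, gave 0.08 to 0.11 and 0.11 to 0.16. All of these kept the cytosolic Mdh1, which is among the 11 cycle genes and had the highest difference (0.36). The contrast was not computed without Mdh1. The separation of the arrays is thus shown only for the 11 cycle genes together, and not for the mitochondrial enzymes alone. Median differences, less moved by 1 gene, were 0.06 for the cycle, -0.04 for complex I and -0.09 for complex IV. This contrast was chosen after the values were seen, so it carries no test, and the slide and scan differ between its groups as everywhere here.

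**Figure D3:**
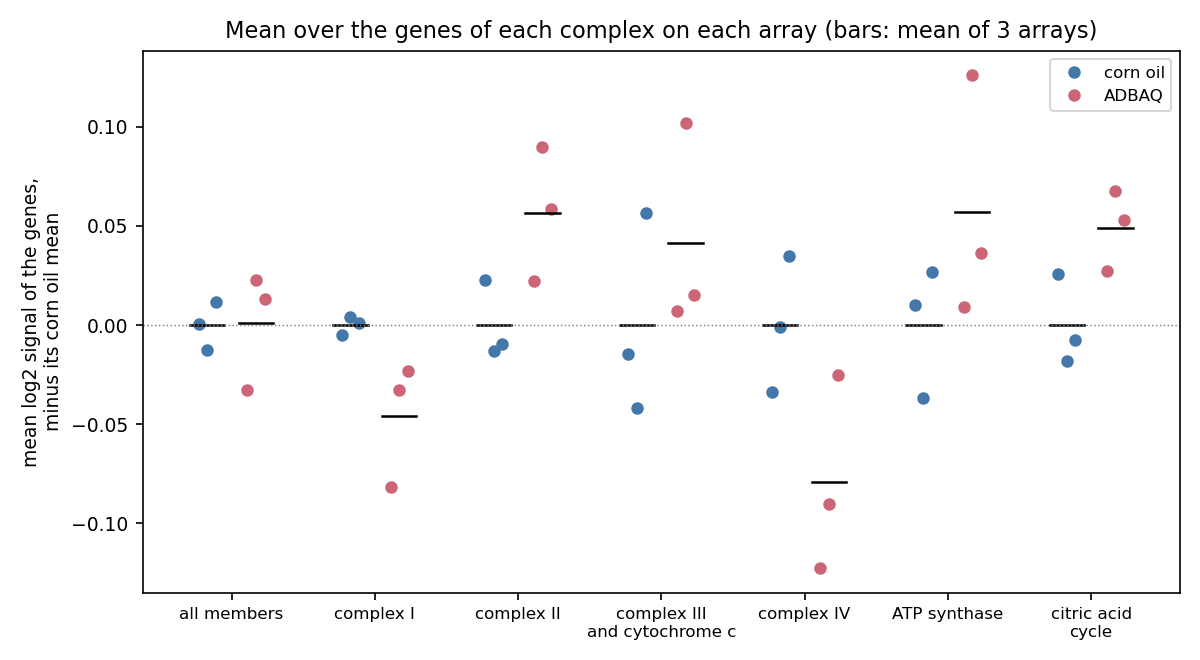
Mean log2 signal over the genes of each complex or of the cycle on each array, minus its corn oil mean (points are the 3 arrays per group, bars their mean). The mean over all 42 genes overlaps between the groups, complexes I and IV lie below their corn oil mean after ADBAQ and the other groups above it, with no group mean further than 0.13 from 0 on any array.

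The wider pathway was read through 11 lists of 189 other genes, of which 164 were tested and 0 passed the adjusted test (limma, Benjamini-Hochberg over 12007 genes). At an unadjusted p under 0.05, 21 were higher and 12 lower, 20.1% of the 164 against 19.4% of all genes, and their median was -0.01. With no scaling, which moves all genes upward, 26 of the 164 (15.9%) passed, 25 of them higher, against 9.003% of all genes in either direction. Lactate dehydrogenase gave the smallest adjusted p. Ldha, the subunit that favours making lactate, had signals of 69.1, 60.4 and 68.6 under corn oil and 42.1, 48.1 and 45.8 after ADBAQ. All ADBAQ arrays were well below the corn oil arrays (-0.54 ± 0.09, limma, adjusted p = 0.073), and a second probe was at -0.39; it passed with normexp (adjusted p = 0.049), with robust variances and an intensity trend (0.036) and with no scaling (0.045). Ldhb, the subunit that favours using lactate, lay on the other side, with 110.8, 116.1 and 104.5 against 140.8, 146.4 and 129.8 (0.33 ± 0.07, limma, adjusted p = 0.12). The 17 glycolytic and lactate genes tested were 9 above 0 and 8 below, with a median of 0.03, which turned negative without corn oil replicate 1 (-0.02), ADBAQ replicate 2 (-0.01) or ADBAQ replicate 3 (-0.008).

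**Figure D4:**
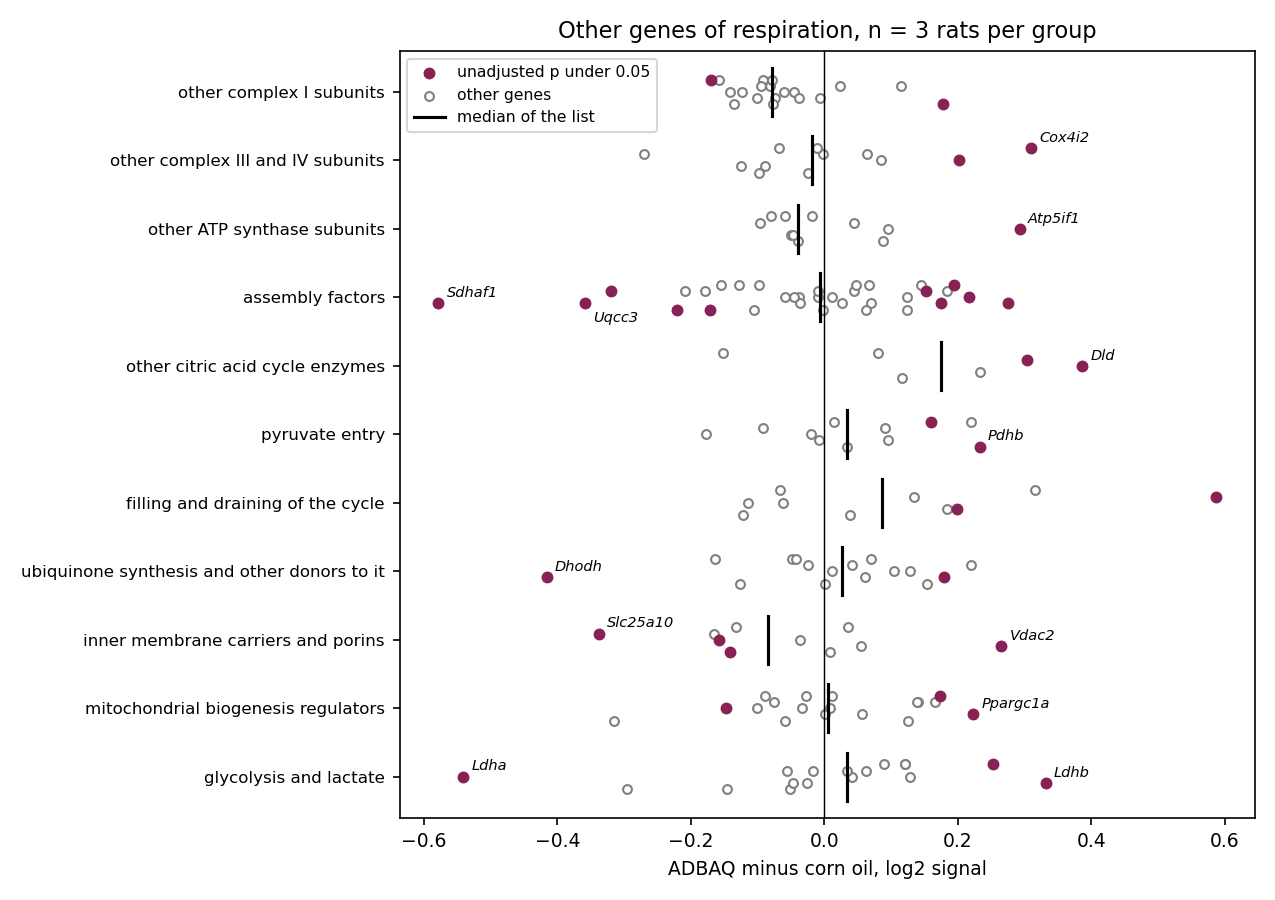
Differences of the 164 other genes of respiration, ADBAQ minus corn oil in log2 signal (points are genes, vertical bars list medians, n = 3 rats per group). Points crowd around 0 in every list; Ldha and Sdhaf1 lie furthest to the left.

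The routes into and out of the cycle lay on both sides of 0. Of the genes that fill and drain the cycle 6 of 10 lay above 0, with a median of 0.09 (0.03 with normexp, 0.05 without ADBAQ replicate 2). Pdhb and Dlat, components of the pyruvate dehydrogenase complex, were at 0.23 ± 0.07 and 0.16 ± 0.06 without overlap (limma, adjusted p = 0.17 and 0.21), and the whole list of pyruvate entry had 7 of 11 above 0 with a median of 0.03 (6 of 11 and 0.0008 with normexp). Pdk4, the kinase that switches that complex off, had signals of 0.657, 0.223 and 0.161 under corn oil and 0.289, 0.286 and 0.280 after ADBAQ. The corn oil rats spread more widely than the groups differ (-0.01 ± 0.51), and without corn oil replicate 1 the difference was 0.59 (limma, adjusted p = 0.19). Got1, the cytosolic aminotransferase that works with Mdh1 in the shuttle, was at 0.20 ± 0.06 (limma, adjusted p = 0.19). Pck1, which draws oxaloacetate off to make glucose in the proximal tubule, was at 0.18 ± 0.10 with overlapping groups.

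Among the remaining subunits and assembly factors, the largest differences lay in genes that help to build the complexes. Sdhaf1, which serves the iron-sulfur subunit of complex II, had signals of 20.5, 18.2 and 17.7 under corn oil and 12.8, 10.6 and 14.7 after ADBAQ (-0.58 ± 0.13, limma, adjusted p = 0.12), with a second probe at -0.37. Uqcc3, an assembly factor of complex III, had 29.5, 27.2 and 29.7 against 22.1, 22.6 and 22.6 (-0.36 ± 0.06, limma, adjusted p = 0.080; 0.037 with robust variances and an intensity trend). Groups overlapped in neither. Of the proteins they serve, Sdhb was at 0.02, and the complex III subunits ran from -0.27 (Uqcrq, with overlapping groups) to 0.23 (Uqcrc2). The 34 assembly factors as a whole were balanced, 16 above 0 and 18 below. Cox4i2, the isoform of Cox4i1 that is known for regulation by low oxygen, was at 0.31 ± 0.06 (limma, adjusted p = 0.097; 0.046 with robust variances and an intensity trend), though its other probe was at 0.08. Cox6a2, known as the heart and muscle isoform, was at 0.20 ± 0.06 (0.06 with normexp; other probes 0.82 and 0.32), and Atp5mg, a small membrane subunit of ATP synthase, at -0.10.

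Genes that supply the chain from other sides were mixed. Dhodh, which passes electrons from pyrimidine synthesis to ubiquinone, was at -0.42 ± 0.10 (limma, adjusted p = 0.14; other probe -0.45), and Pdss2, of ubiquinone synthesis, at 0.18 ± 0.07. Vdac2, an outer membrane porin, was at 0.26 ± 0.06 but its other probe at -0.001, and the dicarboxylate carrier Slc25a10 was at -0.34 ± 0.10. None of the regulators of mitochondrial genes passed the adjusted test. Ppargc1a, the coactivator that drives mitochondrial biogenesis, had signals of 0.685, 0.648 and 0.634 under corn oil and 0.750, 0.756 and 0.790 after ADBAQ, without overlap (0.22 ± 0.06, limma, adjusted p = 0.15). Its partners Nrf1, Esrra and Gabpa were at -0.06, -0.09 and -0.10. The other, dimmer probes of Nrf1 (0.04 and 0.04) and of Gabpa (0.07 and 0.21) lay above 0. Tfam, which packages and transcribes mitochondrial DNA, was at 0.06, and Ssbp1, which binds that DNA when single-stranded, at -0.15. Ppargc1b, a relative of Ppargc1a, had the largest difference of the list in size, -0.31 ± 0.21, with overlapping groups. The list of 18 had 10 above 0 and a median of 0.005.

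Markers of the cells in the cortex were read beside these values. All 12 proximal tubule markers, among them Lrp2, Slc34a1 and Miox, were well above background on every array, so the labelled tissue was borne out, and their summed signal was 2547 to 2626 under corn oil and 2373 to 2448 after ADBAQ. That sum follows its brightest genes, Miox among them. Of the 12, 4 lay above 0 and 8 below, with a median of -0.11. In the adjusted limma test 0 of the 12 passed. At an unadjusted p under 0.05, 5 (41.7%) were lower, against 10.5% of all genes, and 0 were higher. Of the red cell markers 5 of 6 were tested, their sum was 159.7 to 175.4 under corn oil and 317.3 to 367.7 after ADBAQ, and 4 passed as higher (Alas2, Hbb, Hemgn and Rhd). The summed markers of the thick limb and distal tubule (387.9 to 523.2 against 339.8 to 490.4; 6 of 8 tested), collecting duct (211.5 to 258.0 against 209.4 to 230.0; 8 of 8), podocytes (30.9 to 35.9 against 31.1 to 35.1; 5 of 5), endothelium (28.3 to 37.2 against 29.9 to 35.4; 5 of 5) and leukocytes (129.6 to 142.7 against 130.9 to 136.9; 7 of 7) had overlapping ranges. These sums follow their brightest genes and can hide others. None of these markers passed the adjusted limma test. At an unadjusted p under 0.05 (8.94% of all genes were higher), Calb1 (0.51), Scnn1g (0.26), Slc4a1 (0.62), Emcn (0.29) and Itgam (1.27) were higher and 0 were lower. Itgam was well above background on only 1 corn oil array. The part of the proximal tubule and red cell signals in the differences above was not tested.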

How the data were processed

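Cy3-labelled cRNA from total RNA of each rat was read on an Agilent rat array of 62976 spots with Feature Extraction 10.7.1.1 per the file headers (10.7 per the submitters' processing notes). The authors deposited processed signal intensity, background-subtracted on a linear scale, and spot flags (other units) for controls, outliers, saturation and signal well above background. The authors' deposited table of the series held the ratio of that signal to a constant for each array, within 0.0858% of its 75th percentile, neither logged nor centred (column medians 0.111 to 0.114).

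Here 1319 control spots and 73 outlier probes were left out, and log2 signals were taken minus each array's 75th percentile. Probes well above background on all 3 arrays of a group were kept (42256). RefSeq accessions gave 27460 of 61657 probes 1 gene symbol. The probe with the highest mean stood for its gene. The 2 groups were fitted in R 4.3.3 with limma 3.58.1 (lmFit, eBayes, two-sided, Benjamini-Hochberg over 12007 genes at 0.05). A permutation of 3 against 3 cannot reach that threshold, so p-values rest on limma's model, and the number of arrays limits precision. Figures used matplotlib 3.10.9. Scripts were tested on simulated data.

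Members and lists were chosen with earlier results of these data known. Named are members past the threshold, the highest and lowest of each group, and per list the 2 genes with the smallest p and those past the threshold, with Ppargc1a, Nrf1, Esrra, Gabpa, Tfam, Pdk4, Pck1 and Ldha. Results for 3 genes that the rule names are not reported here. Alternatives were other background correction, scaling, filters, probes, variance models, the authors' table, a replicate block and leaving out saturated genes or each array.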

Additional observations from a re-analysis of the deposited data

How the results depend on the processing

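Under 15 of 16 alternatives no gene of the 42 passed the adjusted test, and the smallest adjusted p was that of Mdh1 in each. Of these, leaving out saturated genes could not change the result, as none of the 42 was saturated. With no scaling, which shifts the median of all genes from -0.01 to 0.15, 41 of 42 lay above 0 and 5 passed as higher (Cs, Idh3g, Mdh1, Ogdh and Uqcrc2, adjusted limma p 0.031 to 0.047). Medians and counts of genes at an unadjusted p under 0.05 moved as follows. With normexp the median of the 42 was 0.00899, 8 were higher and 3 lower (10.3% and 13.2% of all genes), and 67 and 79 of all genes passed as higher and lower. The sign of 9 of the 42 differences turned, among them Ndufs3 (0.05) and Atp5f1b (-0.03). With quantile normalization the median was 0.046, and 9 were higher and 0 lower (10.3% and 9.01% of all genes). With no scaling the median was 0.147, 20 were higher and 0 lower (31.1% and 2.34% of all genes), and 1027 and 54 of all genes passed. With no detection filter 3 were higher and 1 lower (7.25% and 7.58% of all genes), and 4 of all genes passed as lower. With an intensity trend and robust variances 6 were lower (11.6% of all genes), and 72 and 84 of all genes passed. With the replicate number as a block 3 were higher and 1 lower (8.58% and 10.3% of all genes), and 0 and 0 of all genes passed limma's adjusted test, with 2269 at an unadjusted p under 0.05. In their deviations from the group means, arrays of the same number correlated at 0.009, 0.157 and 0.035. Arrays of different numbers were not compared, so these values do not settle whether the numbers pair the rats. Slide or scan as a block could not be fitted. The cause of these shifts was not tested.

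Leaving out 1 array at a time, 2 to 4 of the 42 were higher and 0 to 2 lower at an unadjusted p under 0.05 (2 higher without corn oil replicate 2, corn oil replicate 3 or ADBAQ replicate 2; 5.88% to 8.49% and 7.304% to 10.4% of all genes), and 8 to 27 and 1 to 10 of all genes passed as higher and lower. The lowest pair, 8 and 1, came without ADBAQ replicate 2. Fewer by over 1.5 times were also 12 and 4 without corn oil replicate 1, 16 higher without corn oil replicate 2, 15 higher without corn oil replicate 3 and 5 lower without ADBAQ replicate 1. Of the 22 members with several probes, 10 had probes on both sides of 0.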
